A study of Mus musculus with 6 samples.

Results

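The signal transducer and activator of transcription (STAT) genes described here are Stat2, Stat3, Stat4, Stat5a, Stat5b and Stat6. They were taken by gene symbol, mapped from the Ensembl identifiers, and are 6 of 55416 genes counted. The data are 6 RNA sequencing libraries from CD3+ T cells of C57BL/6 mouse spleen, 3 from recipients of an isograft, whose donor is of the same inbred genotype, and 3 from recipients of an allograft, whose donor is not. All recipients are labelled as wild type (WT). Per the labels the cells of both groups were kept in medium with serum and antibiotics. The sources used here name neither the grafted organ nor the donor strain, the age or the time after grafting. Nothing in the labels ties a library to a mouse of its own. The p-values therefore speak only of the spread among these libraries, part of which may be technical. The comparison asks how the STAT genes of the spleen T cell fraction differ between allograft and isograft recipients.

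STAT proteins carry signals from cytokine receptors to the nucleus. Binding of a cytokine brings receptor chains together with their Janus kinases, which phosphorylate the receptor and then the STAT, and paired STAT proteins enter the nucleus and bind DNA. In T cells STAT5A and STAT5B carry signals of interleukin 2, 7 and 15, STAT3 those of interleukin 6, 10 and 21, STAT4 those of interleukin 12, STAT6 those of interleukin 4, and STAT2 those of type I interferon. The proteins are switched on by phosphorylation, which RNA counts do not measure.

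Stat5a and Stat5b are neighbouring copies of an ancestral gene, and their likeness bears on how well reads can be assigned to each. Over the longest annotated coding sequences (GENCODE M21, GRCm38) they had the same base at 2084 of 2294 aligned positions (90.8%), whereas the other 14 pairs of the 6 genes lay between 61.9% and 67.8%. Their longest run of identical coding bases was 324 bases, from coding base 571 to 894 in both. The stretch of 90 coding bases in which they were least alike, at coding bases 88 to 177 of each, is shown because it is the kind of sequence by which reads are told apart. Capitals mark the bases that differ, and 62 of the 90 are identical.
Stat5a: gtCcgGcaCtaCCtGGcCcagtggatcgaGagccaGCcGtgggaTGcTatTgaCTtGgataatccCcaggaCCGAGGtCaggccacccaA
Stat5b: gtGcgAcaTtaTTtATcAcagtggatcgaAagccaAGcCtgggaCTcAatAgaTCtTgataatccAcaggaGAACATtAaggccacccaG
Of all stretches of 100 bases in the coding transcripts, 6.31% of those of Stat5a occurred also in Stat5b and 4.87% of those of Stat5b also in Stat5a. For stretches of 50 bases these were 14.7% and 11.1%. A read that maps to several places is left out by the counting tool's defaults, so reads from such stretches may be missing from both genes. The read length is not stated in the labels or file headers.

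Stat5b (chromosome 11, 100671557 to 100741550, reverse strand, GRCm39), Stat5a (100750177 to 100775995, forward strand) and Stat3 (100775924 to 100830366, reverse strand) lie side by side. A gap of 8626 bases separates Stat5b from Stat5a, and the ends of Stat5a and Stat3 overlap by 72 exon bases on opposite strands. Stat6 (chromosome 10, 127478855 to 127496826, forward strand) shares 40 exon bases with the antisense gene Nab2, and Stat2 lies on the same chromosome (128106428 to 128128718, forward strand). Stat4 (chromosome 1, 52026307 to 52146348, forward strand) shares 1033 of its exon bases, 26.7%, with the predicted gene Gm28177 on the same strand. Fragments in bases shared by 2 genes are counted for neither by the tool's defaults, so the level of Stat4 is a low estimate. The 6 genes have 16 to 26 separate exon blocks and summed exon lengths of 3872 (Stat4) to 9527 bases (Stat3).

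Library totals ran from 30066137 to 37821738 counts, and each of the 6 genes had at least 2683 counts in every library. No library stood apart within its group: log2 levels correlated across genes at 0.989 to 0.990 among isograft, 0.986 to 0.988 among allograft and 0.946 to 0.952 between libraries of different groups. Genes are not independent, so these values only describe the libraries. The defining markers of T cells were present in every library, with 17 of 17 listed markers detected and summed levels of 2729 to 2849 CPM (a gene's counts brought to a common library size, here with the scaling factors of TMM, the trimmed mean of M values) in isograft and 2278 to 2503 in allograft libraries. B cell markers were present too, with 14 of 14 detected and sums of 1884 to 1991 and 2033 to 2162 CPM. Plasma cell markers summed to 221 to 232 CPM in isograft and 769 to 868 CPM in allograft libraries, and 3 of the 6 rose while 1 fell. Macrophage and monocyte markers summed to 108 to 114 and 83.9 to 99.9 CPM, and neutrophil and erythroid markers to at most 10.5 and 1.62 CPM. NK cell markers summed to 102 to 105 and 138 to 143 CPM, though 2 of the 8 rose and 2 fell. Dendritic cell markers summed to 41.0 to 44.1 and 78.9 to 84.7 CPM, with 1 rise and 1 fall among 6 tested. The CD3+ label therefore describes a fraction that also held B cell RNA, and in such bulk libraries fewer cells of a type and less RNA per cell cannot be told apart.

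All 6 STAT genes passed the low-count filter, and all 6 passed the test between groups. Stat3, Stat5a, Stat6 and Stat2 were higher and Stat5b and Stat4 lower in allograft libraries (edgeR quasi-likelihood test, adjusted p under 0.05 over 14926 genes). The call itself was common in this comparison, with 28.7% of all genes called as risen and 29.1% as fallen, 57.8% together. The groups overlapped for none of the 6, and neither did they for 63.3% of all genes, of which 31.3% of all genes were higher and 32.1% lower in allograft libraries. On the TMM scale none of the 6 reached a 2-fold change, which 10.1% of all genes did upward and 10.1% downward. With libraries scaled by total counts Stat5b did, at a log2 fold change of -1.08.

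**Figure D1:**
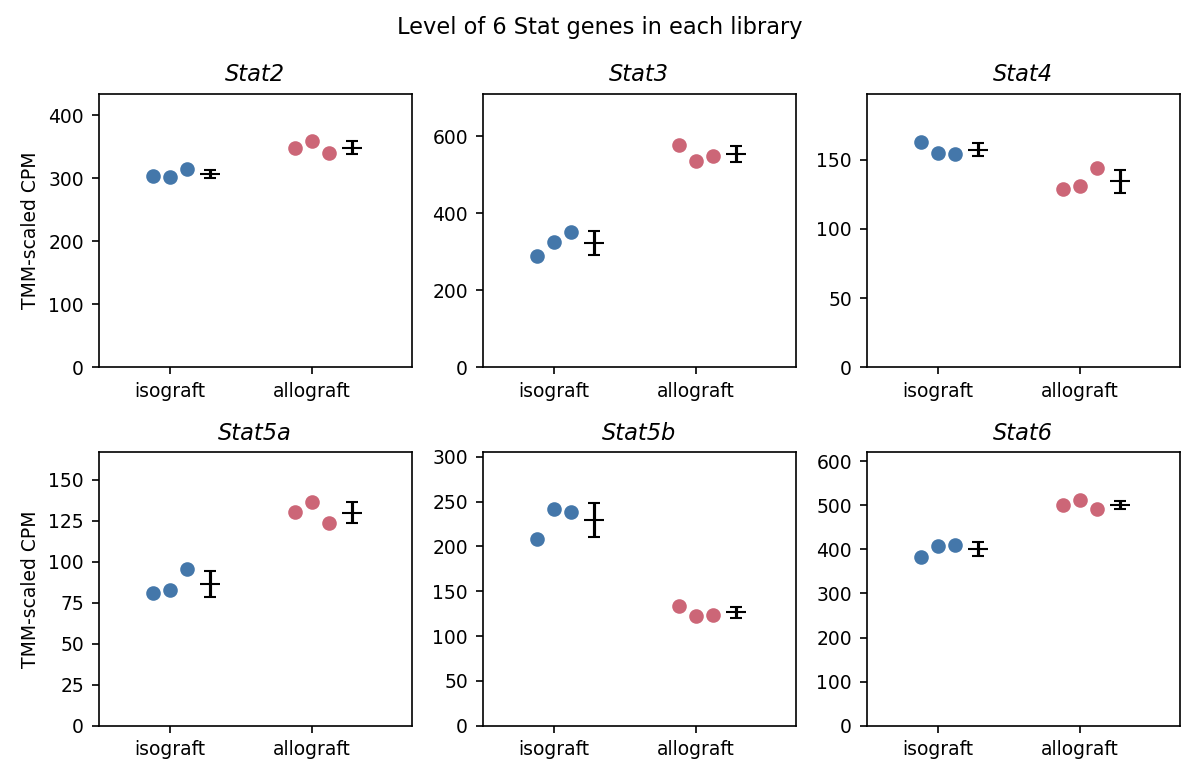
TMM-scaled CPM (vertical axis, from 0) of each of the 6 Stat genes in the 3 isograft and 3 allograft libraries; points are libraries and the bar beside them is the mean with its SD. The 3 allograft points of Stat3 lie between 536 and 578 CPM, above the isograft points at 288 to 350.1, and those of Stat5b lie at 123 to 134 against 208 to 242.

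Stat3 encodes the STAT of interleukin 6 family, interleukin 10 and interleukin 21 signalling. It stood at 288, 325 and 350.1 CPM in isograft libraries 1, 2 and 3 and at 578, 536 and 548 CPM in allograft libraries 1, 2 and 3. The lowest allograft library was well above the highest isograft library, and the isograft libraries were the more scattered. The rise was 1.72-fold, a log2 fold change of 0.79 ± 0.08 (SE; 95% interval 0.63 to 0.95; edgeR adjusted p = 3.4e-08). Of all genes tested, 84.9% had a lower fold change. The call held in all 15 alternative analyses, with log2 fold changes of 0.57 to 0.85.

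The STAT5 genes moved in opposite directions. Stat5a stood at 81.1, 82.9 and 95.5 CPM in the isograft and at 129.98, 136 and 124 CPM in the allograft libraries, a rise (log2 fold change 0.59 ± 0.08 SE, edgeR adjusted p = 2.2e-06). Stat5b, its near copy on the other side of the 8626-base gap, stood at 208, 242 and 238 CPM in the isograft and at 134, 123 and 124 CPM in the allograft libraries. It was 1.81-fold lower (log2 fold change -0.86 ± 0.08 SE, 95% interval -1.01 to -0.70, edgeR adjusted p = 8.2e-09). Only 13.9% of all genes had a lower fold change than Stat5b. Both calls held in all 15 alternatives, with log2 fold changes of 0.37 to 0.66 for Stat5a and -1.08 to -0.82 for Stat5b.

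The balance between the STAT5 genes can be read within each library, where library scaling cancels. Isograft libraries 1, 2 and 3 held 2.56, 2.92 and 2.49 Stat5b counts for each Stat5a count. Allograft libraries held 1.03, 0.901 and 1.00. The mean ratio went from 2.66 ± 0.229 to 0.977 ± 0.0674 (SD, n = 3 each), so a clear excess of Stat5b counts became near equality. As a share of the counts of both genes, Stat5b made up 72.6% ± 1.66 in isograft and 49.4% ± 1.75 in allograft libraries. An exact two-sided permutation test over libraries gave p = 0.10, the smallest p that 3 against 3 libraries allow. Per base of exon the ratio was 3.42 ± 0.295 and 1.26 ± 0.0868, with Stat5b the higher in each of the 6 libraries. This turns with the longest coding transcript as length, by which Stat5a was the higher in all 3 allograft libraries (means of 33.4 and 24.3 RPKM). Together the genes amounted to 289, 325 and 334 CPM in isograft and 264, 259 and 248 CPM in allograft libraries, a sum 0.812 times as high in the allograft group on the TMM scale.

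**Figure D2:**
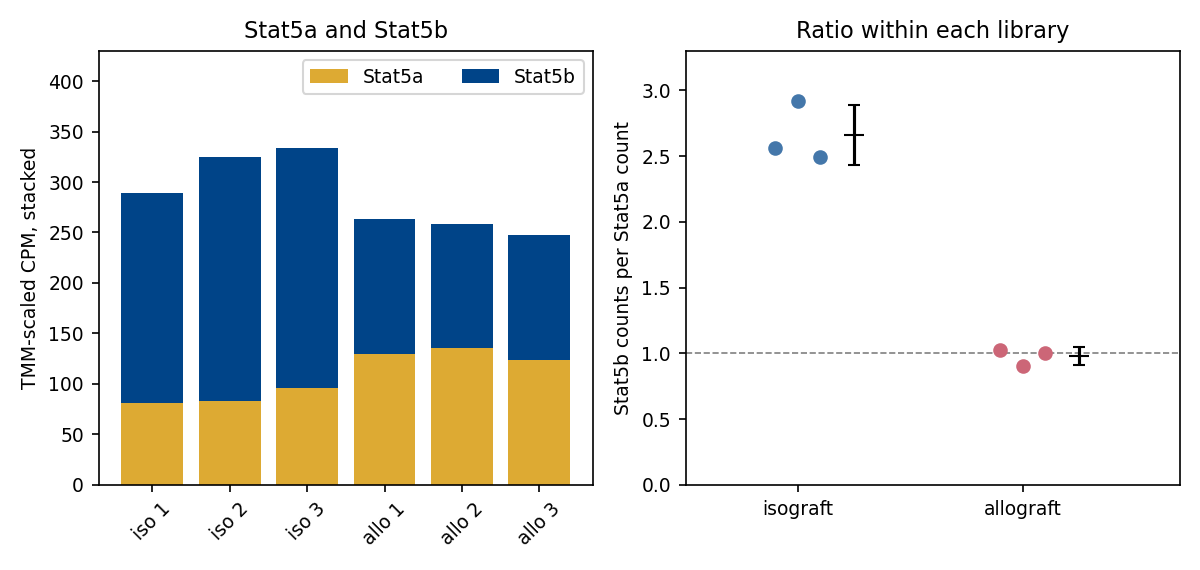
Left, TMM-scaled CPM of Stat5a and Stat5b stacked for each isograft (iso) and allograft (allo) library; right, Stat5b counts per Stat5a count in each library, with mean and SD and a dashed line at equal counts. The isograft ratios lie at 2.49 to 2.92 and the allograft ratios at 0.901 to 1.03.

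Stat6, which carries interleukin 4 and interleukin 13 signals, had the highest level of the 6 genes per length in both groups. It stood at 382, 408 and 411 CPM in isograft and 500.6, 511 and 491 CPM in allograft libraries, with little scatter within the allograft group. The rise was 1.25-fold (log2 fold change 0.32 ± 0.07 SE, edgeR adjusted p = 0.00036). Stat2, the interferon STAT that joins IRF9 in the complex ISGF3, stood at 303, 303 and 314 against 347, 359 and 339.6 CPM. Its rise of 1.14-fold was the smallest change of the 6 (log2 fold change 0.18 ± 0.07 SE, edgeR adjusted p = 0.022). These 2 rises depend on the library scaling: when libraries were scaled by total counts, the log2 fold change of Stat6 was 0.10 (adjusted p = 0.19) and that of Stat2 turned to -0.037 (adjusted p = 0.66). The call of Stat2 was also lost without isograft replicate 1 (0.17, adjusted p = 0.058), isograft replicate 2 (0.17, adjusted p = 0.082) or allograft replicate 2 (0.16, adjusted p = 0.093).

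Stat4, the STAT of interleukin 12 in T and NK cells, stood at 163, 155 and 154 CPM in isograft and 129, 131 and 144 CPM in allograft libraries. The groups did not overlap, but allograft library 3 came close to the isograft libraries. The fall was 1.17-fold (log2 fold change -0.23 ± 0.07 SE, edgeR adjusted p = 0.010), and the call was lost without allograft replicate 2 (-0.21, adjusted p = 0.056). The summed T cell markers were lower by a like amount in the allograft group (-0.22 on the log2 scale), as 5 of those 17 markers rose and 8 fell. Set against that sum, Stat4 amounted to 5.66% ± 0.280 in isograft and 5.66% ± 0.492 in allograft libraries (SD, n = 3; exact permutation p = 1), and the groups overlapped. A sum of marker CPM is weighted to its most abundant genes and is no measure of T cell content. Any part of T cell content in the fall of Stat4 was not tested.

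**Figure D3:**
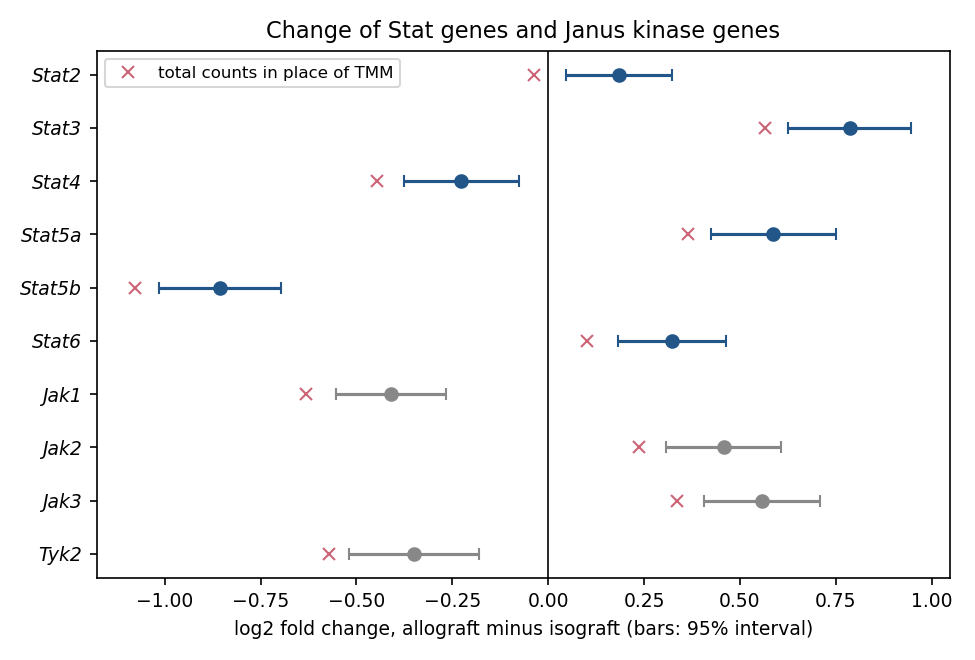
Log2 fold change, allograft minus isograft (horizontal axis), of the 6 Stat genes (blue) and the 4 Janus kinase genes (grey); circles are the TMM-scaled edgeR estimates with 95% intervals and crosses the estimates with total counts. Stat3 (0.79) and Stat5b (-0.86) lie farthest from 0 among the Stat genes, and the cross of Stat2 lies at -0.037, on the other side of 0 from its circle.

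Set against the same sum of T cell markers, the other 5 genes kept groups without overlap, at 11.6% ± 1.07 and 23.3% ± 0.224 for Stat3, 3.11% ± 0.301 and 5.47% ± 0.439 for Stat5a, 8.25% ± 0.549 and 5.33% ± 0.0678 for Stat5b, 14.4% ± 0.441 and 21.1% ± 1.24 for Stat6, and 11.04% ± 0.385 and 14.7% ± 0.979 for Stat2 (isograft and allograft, SD, n = 3). Set against the summed B cell markers, which were 0.11 higher on the log2 scale in the allograft group although 4 of the 14 rose and 6 fell, Stat3, Stat5a and Stat6 again were higher and Stat5b and Stat4 lower without overlap. The groups overlapped for Stat2, at 15.7% ± 0.838 and 16.6% ± 0.455. The T cell sum was lower and the B cell sum higher in every allograft library. Against the T cell sum, Stat3, Stat5a, Stat6 and Stat2, already higher without overlap, could therefore only stay apart. Against the B cell sum the same held for Stat5b and Stat4, already lower. Those separations add nothing to the CPM values, on which the groups did not overlap for 63.3% of all genes. Fcer2a, 1 of the 14 B cell markers, went from a mean of 52.8 to 378 CPM, a larger rise than that of the whole sum. It is also a listed STAT6 target. Ratios without Fcer2a are not given here, so the B cell comparison holds only for the sum that includes it. T cells and B cells both use STAT genes, so which of them held these transcripts was not measured.

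Levels of different genes can be compared per exon length, as TMM-scaled RPKM (the TMM-scaled CPM of a gene divided by its summed exon length in kilobases). In isograft libraries Stat6 led at 90.9 ± 3.63 RPKM, followed by Stat2 (51.8 ± 1.10), Stat5b (41.4 ± 3.38), Stat4 (40.6 ± 1.28), Stat3 (33.7 ± 3.27) and Stat5a (12.1 ± 1.10). The libraries of Stat5b and Stat4 overlapped, so their order is not resolved. In allograft libraries Stat6 led at 113.8 ± 2.26 RPKM, Stat2 (58.8 ± 1.66) and Stat3 (58.1 ± 2.26) overlapped behind it, and Stat4 (34.7 ± 2.17), Stat5b (22.9 ± 1.10) and Stat5a (18.2 ± 0.874) came last. On this scale Stat3 was below Stat4 and Stat2 in every isograft library, and in allograft libraries it was above Stat4 and overlapped Stat2.

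As shares of the summed RPKM of the 6 genes, which do not depend on library scaling, Stat3 went from 12.4% ± 0.745 to 19.0% ± 0.697 and Stat5b from 15.3% ± 0.763 to 7.46% ± 0.327 (SD, n = 3 each). Stat4 went from 15.05% ± 1.06 to 11.3% ± 0.817, Stat6 from 33.6% ± 0.297 to 37.1% ± 0.506 and Stat5a from 4.48% ± 0.283 to 5.94% ± 0.243. The share of Stat2 was 19.1% ± 0.543 and 19.2% ± 0.429, a difference within the spread between libraries. The order depends on the length used. With the longest coding transcript of each gene, Stat3 (53.2 RPKM) overlapped Stat4 (52.8) and lay above Stat5b (44.002) in isograft libraries. In allograft libraries Stat3 then ranked above Stat2, at 91.7 and 79.3 RPKM, and Stat5a above Stat5b, at 33.4 and 24.3 RPKM. With only the exon bases that no other gene shares, Stat4 was second in isograft libraries, at 55.4 RPKM against 51.8 for Stat2, without overlap.

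**Figure D4:**
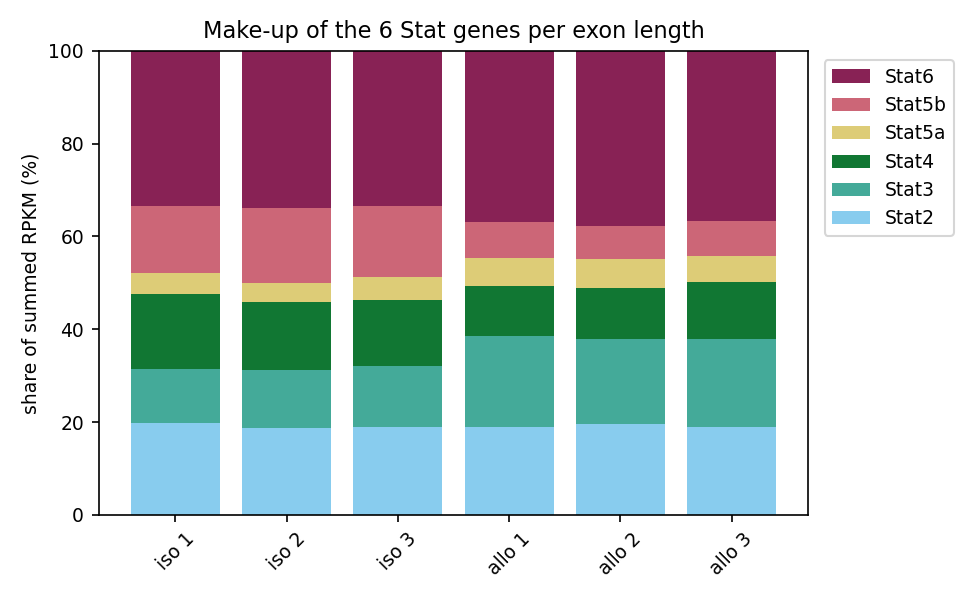
Share of each of the 6 Stat genes in their summed RPKM (percent, vertical axis, stacked to 100) in each isograft (iso) and allograft (allo) library. The Stat3 part grows from a mean of 12.4% to 19.0% and the Stat5b part shrinks from 15.3% to 7.46%, while the Stat2 part stays near 19%.

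All 15 pairs of the 6 genes were compared by the log2 ratio of their counts within a library. The groups did not overlap for any of the 15 ratios, and each exact permutation p was 0.10, as was each adjusted p over the 15 (the smallest the design allows). For Stat3 against Stat5a they nearly touched, at 3.92 Stat3 counts per Stat5a count in isograft library 2 and 3.94 in allograft library 2. The 15 ratios are not independent, since they come from 6 genes that each separated the groups, as 63.3% of all genes did. The share for other gene pairs was not computed. The largest shift was that of Stat3 against Stat5b, 1.64 on the log2 scale, from 1.40 ± 0.0644 to 4.37 ± 0.0522 Stat3 counts per Stat5b count. Stat5a against Stat5b followed with 1.44, Stat5b against Stat6 with -1.18, Stat2 against Stat5b with 1.04 and Stat3 against Stat4 with 1.02. The smallest shift was that of Stat2 against Stat6 (-0.14). Without any of the 6 libraries in turn, the shift of Stat3 against Stat5b stayed at 1.61 to 1.68 and that of Stat5a against Stat5b at 1.37 to 1.49.

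The Janus kinases, which phosphorylate STAT proteins, also split, with 2 of 4 that rose and 2 that fell. Jak3, the partner of the common gamma chain of interleukin 2 family receptors, rose from 58.1 ± 2.48 to 85.5 ± 2.35 CPM (log2 fold change 0.56 ± 0.07 SE). Jak2 rose by 0.46 ± 0.07. Jak1, the kinase shared by most of these receptors, fell from 630.2 ± 15.4 to 474.4 ± 23.0 CPM (-0.41 ± 0.07), and Tyk2, of interferon and interleukin 12 receptors, fell by 0.35 on the log2 scale. The groups of each kinase did not overlap, as for 63.3% of all genes. The 4 calls held in all 15 alternatives, and 57.8% of all genes were called.

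Of the 9 receptor chains that signal mainly to STAT5, 5 rose and 2 fell, where 28.7% of all genes rose and 29.1% fell. The pathway lists, here and below, were chosen with earlier results of these data known, so their counts only describe. Il2ra, the alpha chain of the interleukin 2 receptor, stood at 42.0, 38.7 and 44.7 CPM in isograft and 518, 575 and 517 CPM in allograft libraries (log2 fold change 3.68 ± 0.08 SE). Il15ra rose by 2.32 ± 0.10. Il7r, the receptor of the survival cytokine interleukin 7, went the other way, from 202, 182 and 177 to 26.9, 20.3 and 35.3 CPM (-2.77 ± 0.19), and Il9r fell by 0.63 on the log2 scale. Csf2rb (-0.11, adjusted p = 0.33) and Crlf2 (0.13, adjusted p = 0.39), named as the remainder of the list, did not pass. The other rises, named to complete the list, were Il2rb (0.87 ± 0.08), Csf2ra (0.46 ± 0.10) and Il2rg (0.50 ± 0.08). Il2rg is the common gamma chain, which is part of the interleukin 7 and 9 receptors as well.

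Of 11 chains that signal mainly to STAT3, 9 could be tested. Of these 9, 1 rose and 3 fell, where 28.7% of all genes rose and 29.1% fell. With total counts 6 fell, and 2 rose with limma-voom and 3 without isograft replicate 3. Their median log2 fold change was -0.12, against -0.014 over all genes. Il21r, the interleukin 21 receptor, rose from 176.8 ± 4.50 to 551.8 ± 46.3 CPM (1.64 ± 0.08). Il6ra fell from 30.8 ± 3.21 to 17.2 ± 2.37 CPM and Il27ra from 53.1 ± 2.90 to 30.9 ± 0.539 CPM, and Il11ra1, named as the remaining call after its value was seen, went from 10.6 to 5.36 CPM. Il6st, the shared gp130 chain, also named outside the rule, differed by 0.10 ± 0.07 (adjusted p = 0.28). Both interleukin 12 receptor chains rose, Il12rb1 from 6.29 ± 0.958 to 17.3 ± 0.521 CPM and Il12rb2 by 0.68 ± 0.11. For STAT6, Il13ra1 rose at low levels (1.04 and 2.54 CPM) and Il4ra by 0.24 ± 0.07, a call that total counts ended (0.024, adjusted p = 0.79). For STAT2, the interferon receptor gene Ifnar1 fell from 110.6 ± 3.47 to 61.2 ± 1.38 CPM, while Ifnar2 (-0.21, adjusted p = 0.051) and Ifnlr1 (-0.46, adjusted p = 0.23) did not pass. Under 5 of the 15 alternatives, total counts among them, 2 of the interferon receptor chains fell.

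Among 20 inhibitors of the pathway 14 rose and 3 fell, again where 28.7% and 29.1% of all genes did. Cish, a SOCS family inhibitor that STAT5 induces, rose from 8.43 ± 0.518 to 49.9 ± 4.47 CPM (2.56 ± 0.10) and Socs3, an inhibitor of interleukin 6 type signals, from 64.6 ± 0.279 to 150.4 ± 15.1 CPM. Pias3, named for inhibition of STAT3, fell from 8.44 ± 0.257 to 3.52 ± 0.158 CPM, and Pias1 fell by 0.35 on the log2 scale. The partners, coactivators and import factors were split, as 4 of 13 rose and 5 fell, against 28.7% and 29.1% of all genes. Without allograft replicate 2, 3 of them fell. The nuclear import genes Kpnb1 (1.08 ± 0.07) and Kpna3 (1.18 ± 0.08) rose, and the coactivator genes Ncoa1 (-0.70 ± 0.10) and Crebbp (-0.46 ± 0.07) fell. Irf9, which binds DNA in the STAT2 complex, named outside the rule as the partner of STAT2, differed by -0.10 ± 0.07 (adjusted p = 0.20).

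Of 26 cytokine genes that signal through STATs, 18 passed the low-count filter, and all 18 rose, where 28.7% of all genes did. A gene at low counts can pass that filter through the allograft libraries alone, so this count and the median of 3.42 are no support in themselves. Lif reached 113.5 ± 15.2 CPM from 1.78 ± 0.556 and Il22 14.9 ± 2.35 from 0.314 ± 0.165, the latter uncertain because a near-identical copy exists in this strain. The genes of interleukin 4 and 13 had 56 and 25 counts over all 6 libraries and were not tested.

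Genes known as STAT targets were described in 5 lists, which share members with each other and with the lists above. Their counts stand beside 28.7% of all genes that rose and 29.1% that fell. In the STAT5 list 10 of 12 rose and 1 fell (median log2 fold change 1.48), and 2 fell with total counts or with a filter of 5 CPM. Ccnd2, a D-type cyclin, rose from 92.4 ± 8.95 to 751.9 ± 37.2 CPM (3.03 ± 0.08), and Ccnd3, another D-type cyclin, fell from 40.1 ± 0.839 to 15.7 ± 0.759 CPM. In the STAT3 list 8 of 12 tested rose and 1 fell (median 1.19), with the AP-1 genes Fosl2 (1.596 ± 0.081) and Batf (1.345 ± 0.078) up and Il6ra, given above, down. Il21 (0.148 and 2.78 CPM) and Il10 (0.486 and 1.86 CPM) are among the 8 and were low in isograft libraries, so they could pass the filter through the allograft libraries, as could Ifng and Ccr8 in the lists that follow. With at least 5 CPM in 3 libraries 6 of the STAT3 list rose and 2 fell, and 2 fell with total counts. In the STAT4 list 4 of 8 rose and 2 fell (median 0.56): Ifng, the gene of interferon gamma, and Furin, a proprotein convertase, rose by 4.69 ± 0.29 and 1.06 ± 0.11, while Il18r1, an interleukin 18 receptor chain, fell by 0.94. Hlx, also a fall (-0.82 ± 0.26), lost its call without isograft replicate 1 (-0.67, adjusted p = 0.067).

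In the STAT6 list 6 of 7 tested rose and 1 fell (median 1.36). Fcer2a, the low-affinity IgE receptor of B cells, stood at 52.8 ± 0.951 against 378 ± 22.6 CPM, and Gfi1, a transcriptional repressor, rose by 2.27 ± 0.08. Gata3, the factor of type 2 helper T cells, was the fall (-0.78 ± 0.31, adjusted p = 0.045), a call lost without isograft replicate 1, 2 or 3 and without allograft replicate 2 or 3 (adjusted p 0.052 to 0.14 in those 5 fits), with -0.44 without allograft replicate 3. In the list of the STAT2 complex 11 of 15 rose and 2 fell (median 0.49). Isg20 and Isg15 rose by 1.66 ± 0.07 and 1.59 ± 0.08, Ifit3 fell from 809.6 ± 28.7 to 598.1 ± 32.2 CPM, and Irf7 fell by 0.19 on the log2 scale. The call of Irf7 was lost without isograft replicate 2 or 3 and without allograft replicate 2. Of all genes 28.7% rose and 29.1% fell. The lists were chosen with earlier results of these data known, so their counts beside those shares only describe and give no support. None of the lists is particular to a STAT, since other pathways act on the same genes.

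**Figure D5:**
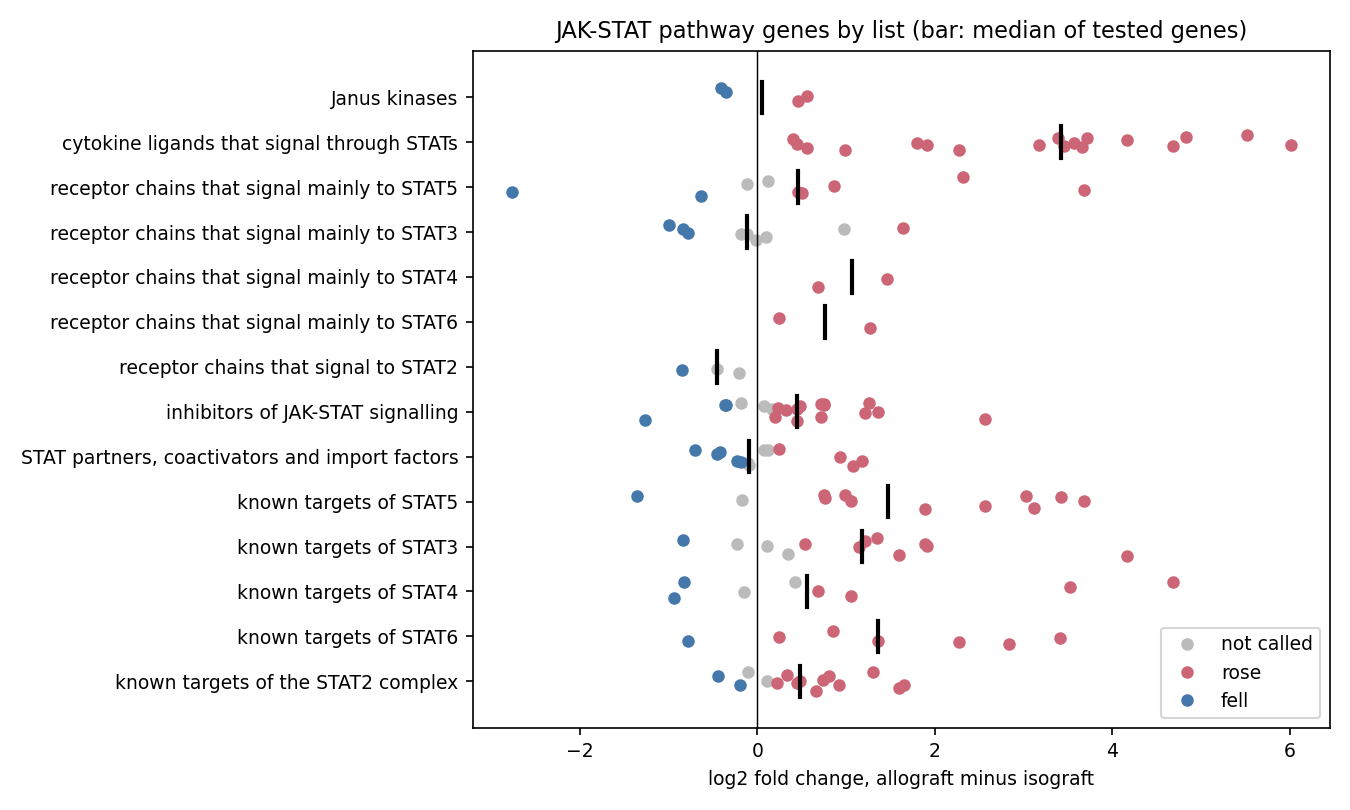
Log2 fold change, allograft minus isograft (horizontal axis), of every tested gene of the 14 JAK-STAT lists; red points rose, blue fell and grey did not pass, and the black bar is the list's median. The 18 tested cytokine genes all lie right of 0, while Janus kinases, STAT5 receptor chains and STAT partners lie on both sides. Cytokine genes at low counts could pass the filter through the allograft libraries alone.

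For each STAT gene the 2 genes with the most similar pattern were taken by the root mean square difference of log2 CPM, centred on each gene's mean over the 6 libraries, among 8816 other genes of at least 5 CPM. Stat3 was matched most closely by Ncoa5 (0.0323 on the log2 scale) and Cfap298 (0.0340), Stat5a by Nap1l1 (0.0283) and Minpp1 (0.0302), and Stat5b by Foxo4 (0.0314), a forkhead transcription factor, and Setd1b (0.0321), a histone methyltransferase. Foxo4 stood at 57.4, 66.0 and 64.4 CPM in isograft and 38.1, 32.6 and 33.8 CPM in allograft libraries. Stat6 was matched by Sec63 (0.0138) and Rsrc2 (0.0187), Stat2 by Eri1 (0.0220) and Ammecr1 (0.0226), and Stat4 by Csnk1g1 (0.0223) and Mitd1 (0.0244). With 6 libraries in 2 groups, a gene with a group difference of like size scores as similar.

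The promoter windows of the 6 genes, 250 bases before an annotated start, numbered 9 in the RefSeq table (GRCm38.p6). They were searched on both strands for the STAT site TTCNNNGAA, its wider form TTCNNNNGAA, preferred by STAT6, and the interferon element GAAANNGAAA. Of all 32851 windows there, 7.02%, 5.85% and 2.98% held a match, and of the 9 windows 0, 1 and 2 did. The window of Stat2 (chr10:128270248-128270497, forward strand) held the last 2 of these motifs, 12 bases apart from start to start, and is printed with both in capitals, because the product of this gene acts in the complex that binds the interferon element. The other window with the interferon element was a window of Stat4 (chr1:52007990-52008239, forward strand). A match describes letters only.
Stat2: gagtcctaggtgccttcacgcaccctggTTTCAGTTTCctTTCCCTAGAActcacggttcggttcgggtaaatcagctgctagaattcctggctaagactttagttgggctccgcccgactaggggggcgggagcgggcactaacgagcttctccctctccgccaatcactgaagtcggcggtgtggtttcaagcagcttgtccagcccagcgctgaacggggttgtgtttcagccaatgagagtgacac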

How the data were processed

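The authors deposited raw counts, whole numbers for each gene. Per the file headers they counted read-pair fragments over exons with featureCounts 1.6.0 and the Ensembl release 104 annotation on GRCm39, with no strand or multi-mapping option set. GRCm38 and mm10 stand in the submitters' processing notes. For 5 of the 6 STAT genes the GRCm39 interval does not overlap the GRCm38 one, and the lowest count of these was 2683, so coordinates are printed as GRCm39. Symbols were matched for 52083 of 55416 genes. Genes were kept by filterByExpr (14926 genes, 99.9% of the counts), scaled by TMM and tested with edgeR 4.0.16 (robust quasi-likelihood, R 4.3.3) with Benjamini-Hochberg adjustment over all genes and a threshold of 0.05. SEs were derived from the log2 fold change and its F statistic.

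Libraries of a group differed by more than sampling noise (chi-square of 10.4 to 22.1 for each degree of freedom). Ratios were compared with exact permutation tests (scipy 1.17.1). The STAT genes, pathway lists and marker lists were chosen with earlier results of these data known. Named list genes are up to 2 rises and 2 falls per list with the smallest p and at least 1 CPM, all Janus kinases and short receptor lists whole. The lengths in the alternatives with other lengths and the ratios of TPM were added after seeing the data. Alternatives were RLE scaling, total counts, no filter, at least 5 CPM in 3 libraries, DESeq2 1.42.0, limma-voom 3.58.1, non-robust estimation, the replicate number as a block, each library left out, and immunoglobulin, hemoglobin and mitochondrial genes left out. The procedure was tested on simulated counts.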

Additional observations from a re-analysis of the deposited data

How the results depend on the processing

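Stat3, Stat5a and Stat5b and the 4 Janus kinases kept their calls and directions in all 15 alternatives. Scaling by total counts moved the median log2 fold change of all genes from -0.014 to -0.24 and the share of rises among all calls from 49.6% to 32.8% (2973 rises and 6093 falls). By that scaling 2 in place of 4 STAT genes rose; Stat2 turned to -0.037 and Stat6 was 0.10 without a call. The call of Stat2 was also lost with no low-count filter (0.16, adjusted p = 0.070). Leaving out 1 library gave 0.16 to 0.20 for Stat2 and -0.29 to -0.20 for Stat4, with 1 or 2 STAT genes called as fallen. The replicate number did not pair the libraries (correlations of same-numbered deviations -0.063, 0.0029 and -0.034). With it as a block 4064 genes rose and 4152 fell, the call of Stat2 was lost (0.18, adjusted p = 0.0504), and that of Irf7 too, while the other 5 STAT calls stayed. The within-library ratios have the same mean differences under the block by construction. The ratio of TPM, which carries no TMM scaling, gave 0.965 for Stat2, below 1 in place of 1.14. The TPM ratios of the other genes were lower too but kept their direction. They were 1.46 for Stat3, 1.27 for Stat5a, 1.06 for Stat6, 0.726 for Stat4 and 0.469 for Stat5b.

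Shares of the summed RPKM, isograft then allograft, moved by more than 1 SD with the longest coding transcript as length for Stat3 (15.3% and 22.5%), Stat5a (6.39% and 8.22%), Stat5b (12.6% and 5.98%), Stat6 (30.5% and 32.6%) and Stat2 in isograft libraries (20.1%). With unshared exon length they moved for Stat4 (19.4% and 14.8%), Stat6 (32.0% and 35.8%), Stat5b (14.4% and 7.13%), Stat2 (18.1% and 18.3%) and Stat3 in allograft libraries (18.3%). The direction between groups of these shares was the same under each length except for Stat2, whose share was 20.1% and 19.5% with the longest transcript. The lowest count of a STAT gene was 2683. Il9 had 0 counts and Il7 1 count over all libraries, and whether such cytokine genes were absent or below this depth cannot be told apart.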
